A study of Homo sapiens with 4 samples.

Results

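Phosphodiesterase 4 (PDE4) enzymes and the adenosine pathway were followed by RNA sequencing in BEAS-2B, an established human line from bronchial epithelium, under 4 conditions with 1 library each. The 9 genes were taken by symbol from the 24424 symbols counted: the enzymes PDE4A, PDE4B, PDE4C and PDE4D, the receptors ADORA1, ADORA2A and ADORA2B, and the enzymes NT5E and ADA. The Control cells had no treatment, the LPS cells had bacterial lipopolysaccharide for 2 hr, and the WT PDZ+LPS and mut PDZ+LPS cells had a peptide for 24 hr and then LPS for 2 hr, and are called here after WT PDZ and after mut PDZ. The WT peptide was taken from the first PDZ domain of the tight junction scaffold ZO-1 and carried a TAT sequence, which lets it enter cells, and a fluorescent FITC label. In the mut peptide a pair of neighbouring glycines of that stretch was changed to alanines, and it served as the control peptide. All cells were wild type in genotype and grown in the same bronchial epithelial medium, and the doses of peptide and LPS for these cells were not given in the sources used here. A condition therefore rested on 1 culture of 1 line, and no library had a peptide without LPS.

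Cyclic AMP (cAMP) is made by adenylyl cyclases, acts mainly through protein kinase A and exchange factors, and is removed by phosphodiesterases. The PDE4 enzymes are specific for cAMP, each gene makes long and short forms from separate start sites, and PDE4 inhibitors are used against airway inflammation. NT5E (CD73) makes adenosine from AMP outside the cell, and ADA removes adenosine as inosine. Adenosine acts on receptors coupled to G proteins, of which ADORA2A and ADORA2B raise cAMP and ADORA1 lowers it, so the receptors and the PDE4 enzymes act on one messenger from opposite ends.

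The depth ranged from 19682929 counts in mut PDZ+LPS to 25155647 in LPS, and a floor of 3 counts corresponded to 0.119 to 0.152 CPM. Of the 9 genes, 8 had a count in every library and a mean of at least 16 normalized counts, and ADORA2A had neither. With 1 library a condition no test between conditions was possible. Each fold therefore compares 2 libraries and carries a 95% exact binomial (Clopper-Pearson) interval. It covers only the error of counting and not the variation between cultures or libraries. Reads that carry no molecular identifiers are not independent molecules, so the interval may be too narrow even for that error. A gene was called when its normalized counts differed at least 2-fold, with at least 16 (4 on the log2 scale) in one of the 2 libraries. In the mut PDZ+LPS library the log2 fold change went down with transcript length over 12119 genes (Spearman's rho against LPS -0.605, from a median of 0.40 in the decile of shortest transcripts to -0.47 in that of the longest), against a rho of 0.0750 in WT PDZ+LPS/LPS. Values for this library are therefore also given after a lowess correction for length and GC content, and the part that this trend plays in them was not tested. The length used is that of the longest protein-coding transcript of each gene, which need not be the form expressed. In bulk RNA, fewer cells with a transcript and less transcript per cell cannot be told apart. The labelled cell type was checked against markers: all 8 epithelial markers had at least 16 counts in every library, and so did all 4 mesenchymal ones, such as VIM. The leukocyte marker PTPRC was at 0 and 5 of 6 leukocyte markers stayed under 16 counts, the exception being CD14 at 362 to 507 counts. The endothelial markers summed to 5 to 15 counts, and of the differentiated airway markers FOXJ1 and SCGB1A1 were at 0 and MUC5AC had 9 to 22 counts.

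The start regions of the genes are shown first, because PDE4B was the member that moved most between libraries with counts in all 4. RefSeq (GRCh38.p14) lists 27 start sites for 8 of the 9 genes, with 5 for PDE4A, 6 for PDE4B, 4 for PDE4C, 8 for PDE4D and 1 each for ADORA1, ADORA2B, NT5E and ADA. The reads were mapped to another build, hg19, and were counted per gene, so the counts do not say which start was used. The 250 bases before each start were searched on both strands for the cAMP response element TGACGTCA, its shorter form TGACG (which lies within it), the kappa-B consensus bound by NF-kB factors, and TATAAA. The first and the most downstream start of PDE4B, 562 kb apart on the plus strand of chromosome 1 at chr1:65792260-65792509 and chr1:66354285-66354534, are printed because they belong to the gene that LPS moved. That of PDE4A at chr19:10416523-10416772 (plus strand, its first start) is printed as a gene of the same family with several matches and no call, and that of ADORA2B at chr17:15944880-15945129 (plus strand) as the receptor with most of the counts. Each sequence reads 5′ to 3′ towards the start, and capitals mark the letters of TGACG or kappa-B matches.
PDE4B, first start: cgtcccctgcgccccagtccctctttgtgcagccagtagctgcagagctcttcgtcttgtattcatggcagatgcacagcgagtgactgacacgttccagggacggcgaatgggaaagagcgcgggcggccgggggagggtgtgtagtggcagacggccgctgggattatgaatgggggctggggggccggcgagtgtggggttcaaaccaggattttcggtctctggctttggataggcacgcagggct
PDE4B, most downstream start: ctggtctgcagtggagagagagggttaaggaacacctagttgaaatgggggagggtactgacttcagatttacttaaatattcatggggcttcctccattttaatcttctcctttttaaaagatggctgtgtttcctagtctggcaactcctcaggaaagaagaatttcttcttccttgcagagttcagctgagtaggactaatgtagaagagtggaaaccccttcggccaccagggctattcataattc
PDE4A, first start: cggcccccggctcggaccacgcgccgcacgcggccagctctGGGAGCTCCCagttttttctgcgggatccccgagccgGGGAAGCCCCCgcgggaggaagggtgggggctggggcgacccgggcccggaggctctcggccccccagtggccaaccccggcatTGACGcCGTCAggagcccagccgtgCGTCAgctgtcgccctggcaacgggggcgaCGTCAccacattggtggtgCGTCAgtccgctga
ADORA2B: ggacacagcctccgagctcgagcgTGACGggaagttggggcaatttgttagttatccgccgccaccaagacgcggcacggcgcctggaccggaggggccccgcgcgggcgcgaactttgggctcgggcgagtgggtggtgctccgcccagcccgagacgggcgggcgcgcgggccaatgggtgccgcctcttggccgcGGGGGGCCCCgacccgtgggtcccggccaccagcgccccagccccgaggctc
None of the 6 PDE4B starts held any of the 4 motifs, which says only that these letters are not in these windows. The first PDE4A start held 5 TGACG matches and 3 kappa-B matches, 2 of which overlap, and the ADORA2B start held 1 of each. Over all starts of the genes, TGACG was found at 5 of 27 (21.2% of 34943 RefSeq starts), the kappa-B consensus at 4 of 27 (9.95% of all starts), and TGACGTCA and TATAAA at 0 of 27 (1.63% and 10.8% of all starts).

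Levels were compared between genes as RPKM, the count per kilobase of the longest protein-coding transcript scaled to the library total. In Control the order was ADORA2B (14.7), PDE4D (12.1), ADA (10.4), NT5E (3.56), PDE4A (2.38), ADORA1 (2.07), PDE4C (0.424), PDE4B (0.222) and ADORA2A (0). PDE4A and ADORA1 did not differ beyond their counting intervals, nor did PDE4C and PDE4B. PDE4B and PDE4C were thus the lowest PDE4 genes in unstimulated cells, whereas in LPS PDE4B reached 1.08 and stood above PDE4C at 0.572, with intervals that did not overlap. In WT PDZ+LPS the levels per length of PDE4B (0.629) and PDE4C (0.531) overlapped. After mut PDZ, PDE4B was at 0.335, the lowest of the 9 genes, and overlapped ADORA2A at 0.464. ADORA2B kept the highest level per length in the 4 libraries, from 14.7 to 20.5, but with the median length of each gene's transcripts PDE4D stood above it in all 4.

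**Figure D1:**
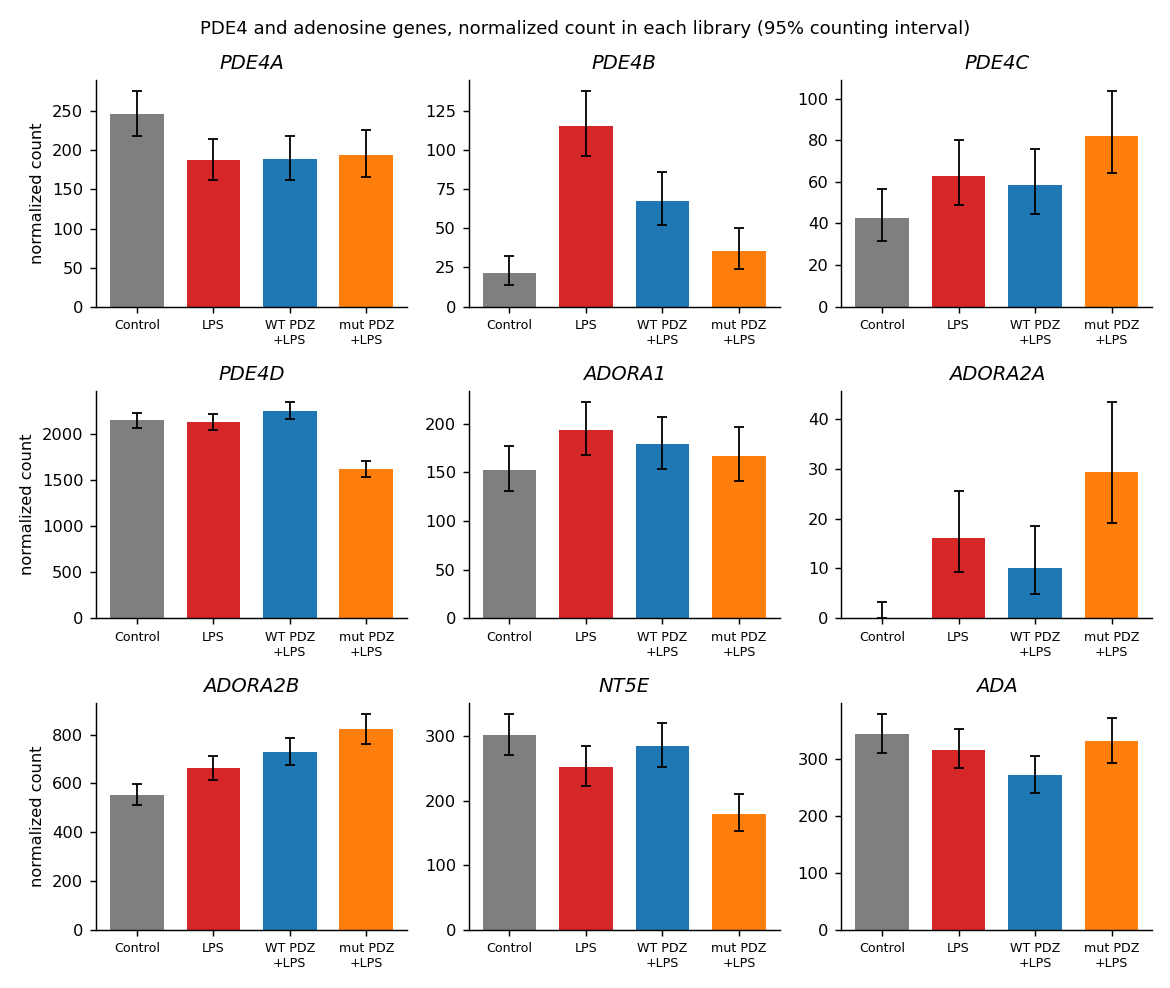
Normalized count (y axis, from 0, scaled separately for each gene) of the 9 genes in the 4 libraries, with 1 bar per library and 95% exact Poisson counting intervals as error bars. PDE4B stood at 21.8 in Control, 115.7 after LPS alone, 67.7 after WT PDZ and 35.2 after mut PDZ, and ADORA2A had 0 counts in Control.

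PDE4B, a cAMP-degrading enzyme known as the PDE4 gene that endotoxin induces in monocytes and macrophages, had 25 counts in Control, 123 after LPS alone, 67 after WT PDZ and 30 after mut PDZ. In normalized counts it was lowest in Control (21.8) and highest in LPS (115.7). It lay between them with the WT peptide (67.7) and with the mut peptide (35.2), the latter nearer to Control. PDE4B rose in LPS/Control 5.13-fold (log2 2.36, interval 1.78 to 3.09). It was the only member called of the 8 that reached the level there, against 4.87% of 13277 genes. It was also higher in WT PDZ+LPS/Control, at 1.59 (0.95 to 2.36), again as the only member called, against 4.70% of 13284 genes. In mut PDZ+LPS/Control its log2 fold change was 0.67 with an interval that crossed 0 (-0.12 to 1.52), and 0.92 after the length correction.

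The peptide comparisons set the peptide libraries against LPS alone and against each other. As no library had a peptide without LPS, peptide effects on the unstimulated level and on the LPS response cannot be told apart. PDE4B was 0.77 lower on the log2 scale in WT PDZ+LPS than in LPS (log2 fold change -0.77, interval -1.23 to -0.33), beyond counting error but under the 2-fold rule, and 0 members were called there against 1.37% of 13236 genes. In mut PDZ+LPS/LPS it fell 3.22-fold, with a value of -1.69 on the log2 scale (-2.34 to -1.13), or -1.42 after the length correction, and was the only member called, against 3.95% of 13378 genes. The direct comparison of the peptides, mut PDZ+LPS/WT PDZ+LPS, gave -0.92 (-1.61 to -0.30), or -0.65 after correction, which was not called. PDE4B thus had fewer normalized counts after the mut peptide, the control, than after the WT peptide. The plot of log2 fold changes sets these values beside those of the other members.

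**Figure D2:**
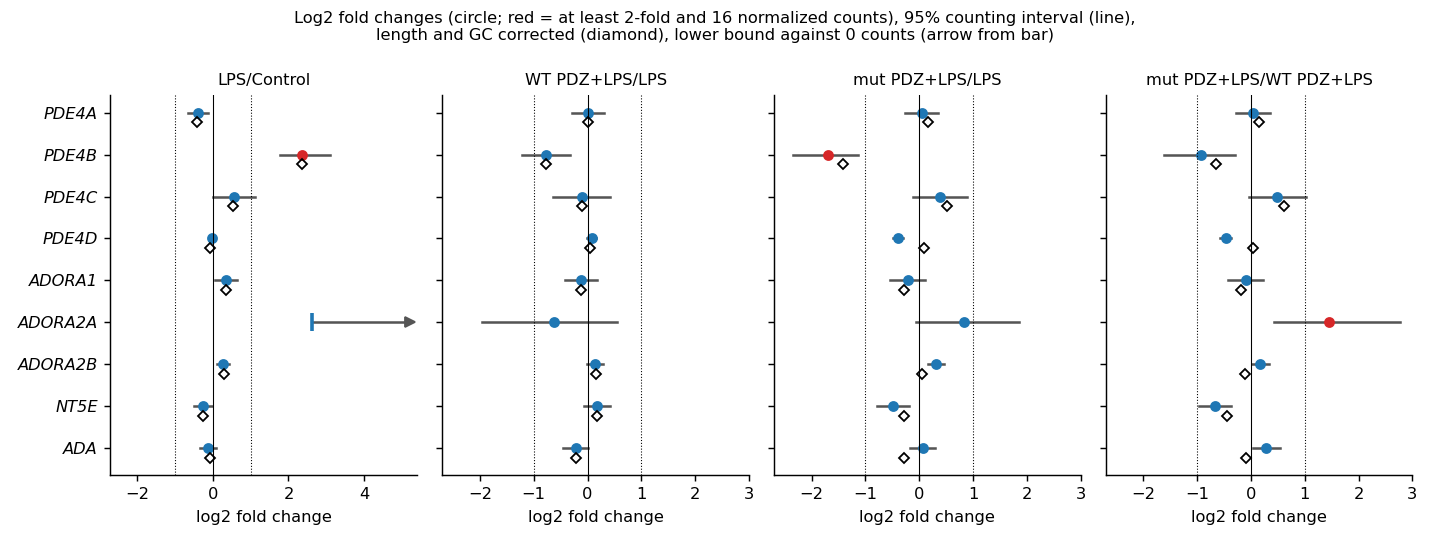
Log2 fold change (x axis) of each of the 9 genes in 4 comparisons, with 95% counting intervals as lines, called genes in red and length and GC corrected values as diamonds. PDE4B is the only red point in LPS/Control (2.36) and mut PDZ+LPS/LPS (-1.69), no gene is red in WT PDZ+LPS/LPS, and ADORA2A against 0 counts is drawn as a lower bound.

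PDE4D, the most abundant PDE4 transcript, had 2469 counts in Control, 2265 after LPS alone, 2231 after WT PDZ and 1382 after mut PDZ. The first 3 libraries lay close together after normalization (2149, 2131 and 2253) and mut PDZ+LPS was lowest at 1624. In LPS/Control its log2 fold change was -0.01 (-0.095 to 0.071), so a change of the size seen for PDE4B lay far outside its counting interval. With the mut peptide, in mut PDZ+LPS/LPS, it was -0.39 (-0.49 to -0.29), under the 2-fold rule, and the length correction turned it to 0.09. PDE4D has the longest transcript of the 9 genes (8232 nt), and the trend of all genes at that length was -0.41. At that length its value in mut PDZ+LPS/LPS was about that of other genes. At the median length of its transcripts, 2538.5 nt, it was lower than most. Genes of about 2552 nt had a median of 0.07 there (quartiles -0.10 to 0.28). The counts do not say which form was expressed, and the part of length in this value was not tested.

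PDE4A, whose product is found in many tissues, had 283 counts in Control, 199 after LPS alone, 187 after WT PDZ and 165 after mut PDZ. Its normalized count was highest in Control (246) and lay between 187 and 194 in the 3 libraries with LPS. The log2 fold change in LPS/Control was -0.39 (-0.66 to -0.13), the direction opposite to PDE4B, and it was not called. Against LPS it was 0.01 with the WT peptide and 0.05 with the mut peptide, with intervals that crossed 0.

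PDE4C, the remaining family member, had 49, 67, 58 and 70 counts in the order Control, LPS alone, WT PDZ and mut PDZ. Control was lowest and mut PDZ+LPS highest in normalized counts, from 42.6 to 82.2. Its log2 fold change was 0.55 (0.010 to 1.13) in LPS/Control and 0.93 (0.40 to 1.505) for mut PDZ against Control, neither of them called. After the length correction the latter was 1.04, past 2-fold.

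Within the PDE4 counts of a library, scaling cancels out and the isoform genes can be set against each other. PDE4B made up 0.885% of PDE4 counts in Control (exact interval 0.573 to 1.30%), 4.63% in LPS (3.87 to 5.50%), 2.63% in WT PDZ+LPS (2.05 to 3.33%) and 1.82% in mut PDZ+LPS (1.23 to 2.59%). The share in LPS stood apart from the other 3, those of the 2 peptide libraries overlapped, and that of mut PDZ+LPS overlapped Control by a narrow margin. PDE4D held 83.9 to 87.7% in every library, so the ratio of PDE4D to PDE4B counts went from 98.8 in Control to 18.4 after LPS alone, 33.3 after WT PDZ and 46.1 after mut PDZ. After mut PDZ, PDE4D was at 1624 normalized counts, its lowest, while PDE4A at 194 was close to its 187 and 189 in the other libraries with LPS. The part that the length trend plays in these shares was not tested. PDE4C had its highest share in mut PDZ+LPS, 4.25% (3.33 to 5.34%), against 1.73% in Control (1.29 to 2.29%). For the sum of the 4 PDE4 genes the log2 fold change in LPS/Control was 0.02 (-0.055 to 0.099), so the family's total hardly moved while PDE4B rose.

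**Figure D3:**
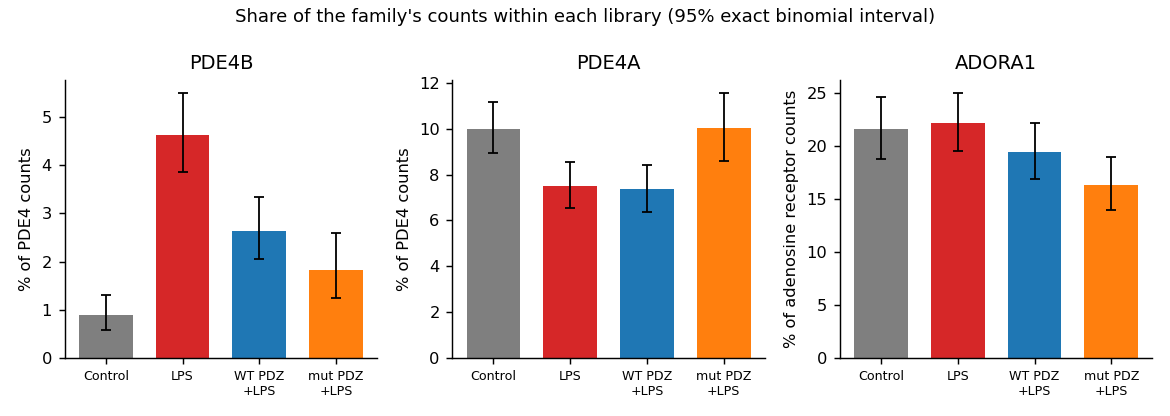
Share of PDE4 counts held by PDE4B and by PDE4A, and share of adenosine receptor counts held by ADORA1 (y axes in percent, each from 0), in the 4 libraries with 95% exact binomial intervals. PDE4B goes from 0.885% in Control to 4.63% in LPS, while PDE4A is at 10.01% in Control and 10.02% after mut PDZ and at 7.50% and 7.35% after LPS alone and WT PDZ, with PDE4D, the bulk of the PDE4 counts, lowest after mut PDZ.

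ADORA2B, a low-affinity adenosine receptor that raises cAMP, had 634 counts in Control, 704 after LPS alone, 722 after WT PDZ and 700 after mut PDZ. Control was the lowest library and mut PDZ+LPS the highest in normalized counts, from 552 to 822. Its log2 fold change was 0.26 (0.11 to 0.42) in LPS/Control and 0.14 (-0.013 to 0.29) for WT PDZ against LPS alone. Set against LPS alone, mut PDZ gave 0.31 (0.16 to 0.47), and 0.05 after the length correction. ADORA2B has a short transcript (1735 nt), at the end of the trend where genes ran high in that library, with a fitted trend of 0.24 at that length. No comparison called ADORA2B.

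ADORA1, the receptor that lowers cAMP, had 175, 206, 177 and 142 counts in the order Control, LPS alone, WT PDZ and mut PDZ. Its normalized counts stayed within 152 to 194 in the 4 libraries. The log2 fold change was 0.35 (0.05 to 0.65) in LPS/Control, -0.12 (-0.41 to 0.18) for WT PDZ and -0.21 (-0.53 to 0.10) for mut PDZ against LPS alone, none of them called. ADORA2B to ADORA1 counts stood at 3.62 to 1 in Control, 3.42 after LPS alone, 4.08 after WT PDZ and 4.93 after mut PDZ, where only the intervals of LPS (2.92 to 4.01) and mut PDZ+LPS (4.11 to 5.95) did not overlap. The length trend runs in the same direction as that difference. For mut PDZ against LPS alone the corrected values still differed, at 0.05 for ADORA2B and -0.29 for ADORA1. The part of the trend in the difference was not tested.

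ADORA2A, the receptor through which adenosine restrains many leukocytes, was the one gene near the floor. It had 0 counts in Control, 17 after LPS alone, 10 after WT PDZ and 25 after mut PDZ. Taking 3 counts as the limit of the 0 in Control, it was at least 6.12-fold higher in LPS, at least 3.87-fold higher in WT PDZ+LPS and at least 11.3-fold higher in mut PDZ+LPS. These bounds leave out the counting error of the higher library, and the lower limits of the counting intervals on the log2 scale were 2.16, 1.38 and 3.09. At 15.99 normalized counts in LPS it missed the level of 16, and it was called higher in mut PDZ+LPS/Control, where 8.09% of 13434 genes were called. Between the peptides, in mut PDZ+LPS/WT PDZ+LPS, it was called higher at 1.45 (0.43 to 2.76), against 4.26% of 13372 genes. It was the only member called in each of these comparisons. Of the receptor counts it made up 0 of 809 in Control, which allows a share of up to 0.371% (3 counts) or 0.455% (exact upper limit), then 1.83% after LPS alone, 1.10% after WT PDZ and 2.88% after mut PDZ.

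The count table also holds SPECC1L-ADORA2A, a read-through transcript that shares exons with ADORA2A, and it was looked at after the values of ADORA2A were seen. It had 32 counts in Control, 54 after LPS alone, 51 after WT PDZ and 5 after mut PDZ. Where ADORA2A was highest, in mut PDZ+LPS, the read-through was lowest, and for mut PDZ against LPS alone its log2 fold change was -2.91 (-4.79 to -1.80). The sum of both symbols was 32, 71, 61 and 30 counts. With the sum the log2 fold change was 1.23 (0.64 to 1.91) for LPS alone and 1.12 (0.51 to 1.81) for WT PDZ against Control, both past 2-fold. The mut PDZ+LPS/Control value was then 0.33 (-0.43 to 1.10), and mut PDZ+LPS/WT PDZ+LPS turned from 1.45 to -0.79 (-1.49 to -0.15). Against LPS alone, mut PDZ turned from 0.84 (-0.069 to 1.86) to -0.90 (-1.59 to -0.29). Reads of the shared exons could be given to either symbol, and how the counting treated them is not given in the sources used here, so the level of ADORA2A is uncertain in every library. SPECC1L, the other gene in the name of the read-through, had 3201 counts in Control, 2751 after LPS alone, 2474 after WT PDZ and 1362 after mut PDZ. Its log2 fold change for mut PDZ against LPS alone was -0.69 (-0.79 to -0.60), or -0.31 after the length correction. The antisense gene ADORA2A-AS1 had 3 to 8 counts, and the fourth receptor gene, ADORA3, had 0 counts in all 4 libraries.

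**Figure D4:**
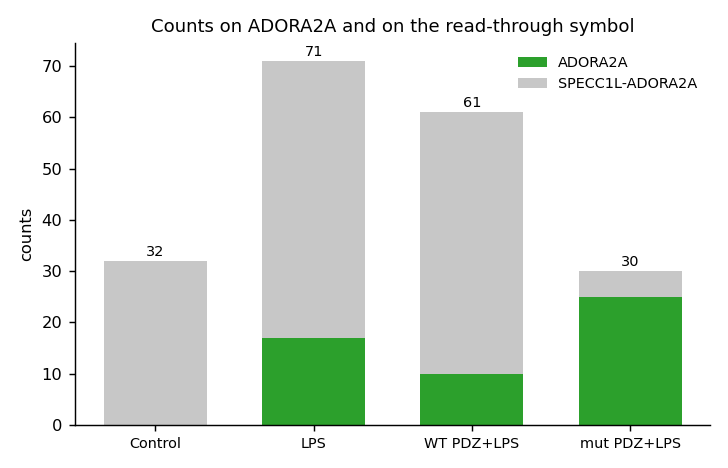
Counts (y axis, from 0) on ADORA2A in green and on the read-through symbol SPECC1L-ADORA2A in grey, stacked for each of the 4 libraries with the sum above each bar. ADORA2A goes from 0 to 25 counts, whereas the sums are 32 in Control, 71 after LPS alone, 61 after WT PDZ and 30 after mut PDZ.

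NT5E, the enzyme that makes extracellular adenosine, had 346 counts in Control, 268 after LPS alone, 282 after WT PDZ and 153 after mut PDZ. Its normalized counts were 301, 252 and 285 in the first 3 libraries and 180 in mut PDZ+LPS, the lowest. The log2 fold change was -0.26 (-0.49 to -0.02) in LPS/Control and 0.18 (-0.07 to 0.42) in WT PDZ+LPS/LPS. Between the peptides it was -0.66 (-0.96 to -0.37), which was not called, and -0.45 after the length correction.

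ADA, the enzyme that removes adenosine, had 396, 337, 269 and 282 counts in the order Control, LPS alone, WT PDZ and mut PDZ. WT PDZ+LPS was the lowest library in normalized counts (272) and the others lay between 317 and 345. Its log2 fold change was -0.12 (-0.33 to 0.093) in LPS/Control, -0.22 (-0.46 to 0.013) for WT PDZ and 0.06 (-0.17 to 0.30) for mut PDZ against LPS alone, which became -0.29 after the length correction. The ratio of NT5E to ADA counts was 0.874 in Control, 0.795 after LPS alone, 1.05 after WT PDZ and 0.543 after mut PDZ. The interval of mut PDZ+LPS (0.443 to 0.663) lay below those of the other 3. The longest transcript of ADA has 1539 nt against 3918 nt for NT5E, but by median length the order is reversed (1333.5 nt against 974 nt). After the length correction, which uses the longest transcripts, NT5E (-0.27) and ADA (-0.29) were alike in mut PDZ+LPS/LPS. The part of length in the ratio was not tested. Between the peptides their corrected values were -0.45 and -0.09. The plot of fold change against transcript length shows each member beside the trend of all genes.

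**Figure D5:**
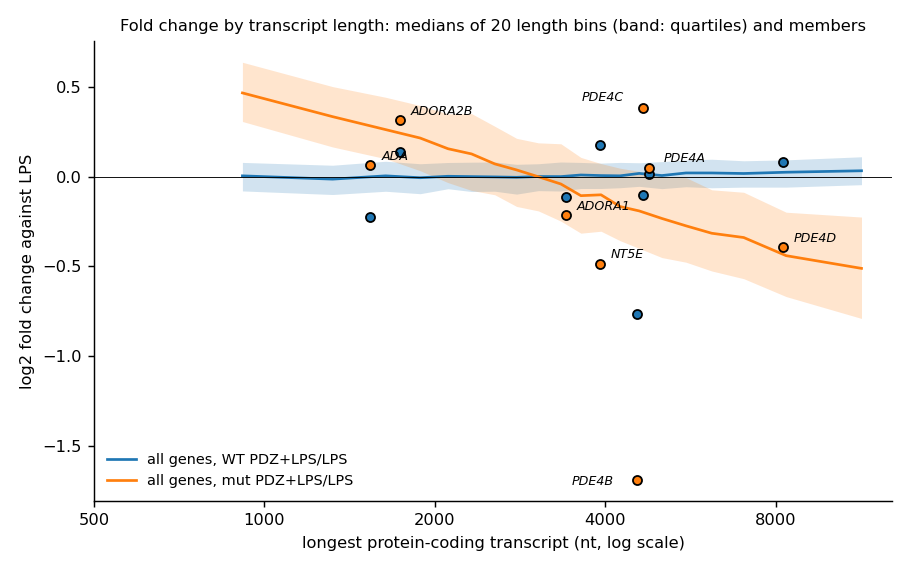
Log2 fold change against LPS (y axis) over the length of the longest protein-coding transcript in nt (x axis, log scale), with lines for the medians of all genes in 20 length bins, bands for the quartiles and points for 8 members (ADORA2A, below the level for this fit, is left out). PDE4D, ADORA2B and ADORA1 in mut PDZ+LPS/LPS (orange) lie within the band of genes of their length, PDE4C and PDE4A lie above it, and PDE4B at -1.69, NT5E and ADA lie below it.

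The other genes of the pathway were described from 7 lists with 106 genes. Over all genes 1.37 to 8.09% were called in the 6 comparisons, so a count of 0 in a list of this size is near the background and is no result about the list. Of 12 other phosphodiesterases that act on cAMP, 4 reached the level of 16 normalized counts (PDE3A, PDE7A, PDE8A and PDE8B) and 0 were called in any of the 6 comparisons. Of 15 genes for cAMP synthesis, the adenylyl cyclases and the G protein subunits that drive or restrain them, 9 reached the level and 0 were called in LPS/Control and in the comparisons between LPS libraries. The subunit GNAI1, which restrains adenylyl cyclase, was 1.01 higher on the log2 scale in WT PDZ+LPS/Control, just past 2-fold, and 0.90 after the length correction. It was also higher in LPS/Control (0.89) and mut PDZ+LPS/Control (0.83), so the difference was not particular to the WT peptide. GNAI1 is named after its value was seen. For adenosine, 0 of 13 measured genes of other production and removal and 0 of 4 of transport were called in the 6 comparisons. The medians of these lists in LPS/Control ran from -0.12 to 0.15, against -0.0010 over all genes.

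Downstream of cAMP, 18 of 22 effector genes reached the level, of which 0 were called in LPS/Control and WT PDZ+LPS/LPS and 1 was lower after mut PDZ, both against LPS alone and against WT PDZ. That gene was PRKAR2A, a regulatory subunit of protein kinase A, with 1400, 1105, 1224 and 360 counts in the order Control, LPS alone, WT PDZ and mut PDZ. Its log2 fold change was -1.30 (-1.47 to -1.12) in mut PDZ+LPS/LPS, and -0.89 after the length correction, under 2-fold. Between the peptides it was -1.54, and -1.12 after correction, still past 2-fold. Of 13 genes for PDE4 partner proteins, which hold PDE4 enzymes at sites in the cell, 13 reached the level, 0 were called in LPS/Control and 1 was lower in each of the same 2 comparisons. That gene was AKAP6, a kinase anchoring protein, with 88, 85, 56 and 21 counts in the same order and -1.66 (-2.46 to -0.99) in mut PDZ+LPS/LPS, or -1.01 after correction. Between the peptides its value of -1.16 became -0.46 after correction. Against Control, mut PDZ had 3 effector genes lower (PRKAR2A, BVES and PKIA) and 2 partner genes lower (AKAP6 and AKAP5), and WT PDZ had PKIA lower, against 8.09% and 4.70% of all genes called in these comparisons. After the length correction PRKAR2A (-1.15) and AKAP6 (-1.04) stayed past 2-fold for mut PDZ against Control, whereas BVES (-0.82), PKIA (-0.86) and AKAP5 (-0.79) did not. BVES, PKIA and AKAP5 are named after their values were seen.

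The last list held early genes known to respond to cAMP, many of which other stimuli induce as well. In LPS/Control 5 of 11 measured genes were called, all 5 of them higher, against 4.87% of all genes, and the median over the 10 whose mean normalized count reached 16 was 1.0003. The orphan nuclear receptor gene NR4A2 had 16 counts in Control, 181 after LPS alone, 163 after WT PDZ and 206 after mut PDZ, and rose by 3.52 (2.87 to 4.45) on the log2 scale. FOSB, a subunit of the AP-1 factor, had 11, 83, 39 and 53 counts in the same order and rose by 2.90 (2.11 to 4.08). NR4A1 (1.39), the stress-response factor ATF3 (1.33) and the kinase gene SIK1 (1.23) were the others called. The 6 genes not called had values on both sides of 0, with NR4A3 at 0.77 and DUSP1 at 0.53 on the log2 scale and PER1 at -0.18, FOS at -0.26, PPARGC1A at -0.43 and RGS2 at -0.78. Unlike PDE4B, these 5 genes were not called in mut PDZ+LPS/LPS, where 0 of 10 measured genes of the list were called, against 3.95% of all genes, and the median was 0.18. The difference between PDE4B and this list was not tested.

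The 3 genes whose log2 fold changes against Control lay nearest to those of PDE4B, by Euclidean distance over the 3 comparisons among 13071 genes, were SGPP2 (distance 0.507), REL (0.665) and MTF1 (0.676). SGPP2, a phosphatase of sphingosine 1-phosphate, had 776 counts in Control, 2999 after LPS alone, 2505 after WT PDZ and 1103 after mut PDZ. REL, an NF-kB subunit, had 523, 1822, 1737 and 486 counts in the same order. MTF1, a metal-responsive transcription factor, had 1390, 4892, 4476 and 2194. As with PDE4B, mut PDZ+LPS stood nearer to Control than WT PDZ+LPS did for each of the 3. The genes were picked by these same fold changes, so the shared order follows from the rule and is no separate result. The log2 fold change of REL against Control was slightly higher after WT PDZ (1.94) than after LPS alone (1.91). The distances use fold changes without the length correction, and corrected values of these genes are not given here. Neither the likeness nor the part that the length trend plays in it was tested.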

How the data were processed

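RNA sequencing was done in 4 libraries of BEAS-2B cells, 1 per condition, grouped by the treatment in the sample labels. RNA was poly(A)-selected, libraries were made with a directional kit and sequenced as paired ends, and reads were trimmed and mapped with TopHat to hg19 per the submitters' processing notes. The authors deposited raw read counts per gene symbol, before normalization. The counting tool, the annotation and the use of strand are not given in the sources used here, so genes that overlap or share exons cannot be fully separated.

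The counts were scaled by geometric size factors (DESeq2 1.42.0, R 4.3.3) of 0.851 to 1.15 fitted over all genes, and log2 fold changes used a pseudocount of 1 normalized count. Intervals come from the counts without a pseudocount (scipy 1.17.1). A gene was called at 2-fold or more with 16 normalized counts in at least one library. With 1 library per condition no p-value was computed. Transcript lengths are those of GENCODE 29, used for gene properties only, and the trend over length and then GC content was removed by lowess (span 0.3, statsmodels 0.14.6) over genes whose mean normalized count reached 16. Of the listed genes, 3 were found under an older symbol. Alternatives were scaling by TMM (edgeR 4.0.16), by total count or by upper quartile, 5 in place of 1 as pseudocount, other level and fold thresholds, and the length correction. Adding the reads of SPECC1L-ADORA2A and using the median transcript length were chosen after seeing the data.

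The 9 members were all named, as were the genes of each list called in LPS/Control or between the LPS libraries (up to 6 per list) and the 3 nearest to each member called in LPS/Control. The members, lists and rules were chosen with earlier results of these data known. The interval and correction steps were tested on simulated Poisson counts and a simulated straight trend over log length. These follow the model that the steps assume, so they cannot show how the steps hold for these libraries. A further marker gene is not reported here.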

Additional observations from a re-analysis of the deposited data

How the results depend on the processing

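No paired analysis was possible because each condition had 1 library, and for the same reason no replicate could be left out. Of the 54 log2 fold changes (9 genes in 6 comparisons), 0 changed sign under TMM or upper-quartile scaling and 1 under total-count scaling, PDE4D in WT PDZ+LPS/Control (from 0.07 to -0.06), where that scaling lowered the median of all genes by 0.13, as it did in LPS/Control. The members called went from 1 to 2 in LPS/Control under TMM or without the level rule, which added ADORA2A, and from 1 to 2 in WT PDZ+LPS/Control without the level rule. With a level of 6 on the log2 scale ADORA2A was lost, leaving 0 for mut PDZ+LPS against Control and 0 for the comparison of the peptides. At 1.5-fold the counts were 4 in mut PDZ+LPS/Control, 1 in WT PDZ+LPS/LPS (PDE4B), 2 in mut PDZ+LPS/LPS (with ADORA2A added) and 3 between the peptides (mut PDZ+LPS/WT PDZ+LPS), where 3-fold left 0. PDE4B was called in LPS/Control and in mut PDZ+LPS/LPS under every scaling, pseudocount, level, fold and correction tried. The length and GC correction gave values for 8 genes, changed the sign of 7 of 48 values, called 0 members in mut PDZ+LPS/WT PDZ+LPS and replaced ADORA2A, which has no corrected value, by PDE4C in mut PDZ+LPS/Control. With the reads of SPECC1L-ADORA2A added, ADORA2A reversed in mut PDZ+LPS/WT PDZ+LPS to -0.79, and its uncalled value for mut PDZ against LPS alone turned from 0.84 to -0.90. Depth limits ADORA2A most, at 0 to 25 counts a library.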
